A study of Rattus norvegicus with 18 samples.

Results

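Rat nucleus pulposus cells treated with Braco-19 were compared with their own untreated cultures. The members were chosen by the labels alone: 3 libraries titled Braco-19 and the 3 control libraries whose titles name no compound, which gives 6 of the 18 libraries of the series. The other 12 are PDS, Phen-DC3 and their controls, 3 libraries a group, so the controls without a compound name were paired with Braco-19 by elimination. All 6 libraries come from 8 weeks old Sprague Dawley rats. Cells were released from the gelatinous centre of the disc, grown in serum-containing medium, seeded for 24 h and then exposed for 24 h to Braco-19 in the treated group. The dose and the vehicle of the controls were not given in the sources used here. The series describes 3 biological repeats a group, but no label ties a library to its own culture or animal. The p-values thus measure the spread between libraries, which may be technical. In the fit of all 18 libraries described below, that spread includes the other 12. In bulk RNA, fewer cells of a type and less RNA per cell cannot be told apart.

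Braco-19 is a trisubstituted acridine that stacks on guanine quadruplexes, four-stranded folds that guanine-rich DNA or RNA can form at telomeres and in many promoters. Ligands of this kind are known for telomere damage, stalled replication and altered transcription in dividing cells. The nucleus pulposus is the proteoglycan-rich core of the intervertebral disc, and its cells make aggrecan and type II collagen and, in degenerating discs, matrix proteases and inflammatory mediators.

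The tested genes were matched by symbol to promoter windows of RefSeq, build GRCr8, running from 250 bases before to 50 bases after each start, and 9899 of the 14184 tested genes had one. Stretches from 8 promoters of genes that passed the test are shown because they carry the searched motifs: the core of the interferon-stimulated response element, and a quadruplex pattern of 4 runs of at least 3 G separated by 1 to 7 bases, each searched on both strands. The response element was searched as GAAANNGAAA, which reads TTTCNNTTTC on the other strand. Capitals mark the match. The first 4 carry the response element: Apol9a (chr7:111028251-111028310, minus strand), Gbp2 (chr2:234005671-234005726, plus strand), Irf7 (chr1:205800058-205800117, minus strand) and RT1-S3 (chr20:2675391-2675450, plus strand).
Apol9a: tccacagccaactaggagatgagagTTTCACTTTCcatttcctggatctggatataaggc
Gbp2: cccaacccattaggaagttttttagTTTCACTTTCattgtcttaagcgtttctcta
Irf7: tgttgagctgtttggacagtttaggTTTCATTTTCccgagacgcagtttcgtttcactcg
RT1-S3: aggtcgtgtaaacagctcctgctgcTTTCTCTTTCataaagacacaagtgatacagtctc
The next 4 carry the quadruplex pattern on the strand opposite the gene, so that the G runs are printed as C runs: Dok1 (chr4:117097718-117097777, minus strand), Ptx3 (chr2:152797491-152797550, plus strand), Cyp1b1 (chr6:21094456-21094515, plus strand) and Ccl20 (chr9:91836942-91837001, plus strand).
Dok1: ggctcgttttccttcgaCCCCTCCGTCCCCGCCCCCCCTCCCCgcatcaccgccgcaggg
Ptx3: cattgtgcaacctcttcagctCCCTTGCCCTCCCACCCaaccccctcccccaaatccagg
Cyp1b1: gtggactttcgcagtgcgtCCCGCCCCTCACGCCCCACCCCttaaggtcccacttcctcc
Ccl20: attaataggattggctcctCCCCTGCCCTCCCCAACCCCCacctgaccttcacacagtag

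The quadruplex pattern stood in 16.6% of all 33469 windows and in 25.1% of the windows of tested genes. Of the genes called with Braco-19 in the test described below, 7 of 21 higher and 5 of 13 lower genes with a window held it. Of those called when the 6 libraries were fitted alone, also described below, 71 of 321 higher (22.1%) and 68 of 257 lower genes (26.5%) did. Genes with the pattern (2486) and without it (7413) had the same median log2 fold change, 0.00. The response element stood in 3.92% of all windows and 2.76% of those of tested genes. It was present in 5 of the 21 higher genes with a window (Apol9a, Gbp2, Irf7, RT1-S3 and Per1) and in 0 of the 13 lower ones. Among genes called with the 6 libraries alone, 19 of 321 higher (5.92%) and 8 of 257 lower ones (3.11%) held the element. Genes with the element (273) and without it (9626) both had a median log2 fold change of 0.00. A match describes letters in a window and shows neither a folded quadruplex nor a bound factor.

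The 6 libraries held 16154796 to 16986615 counts in the controls and 17514799 to 18369443 with Braco-19. Their makeup differed from the other 12 libraries of the series in control and treated cells alike: Fn1, the gene of fibronectin, took 6.49 to 7.77% of counts against 0.636 to 1.32%, genes over 5 kb 23.3 to 25.4% against 7.42 to 10.7%, and ribosomal protein genes 2.14 to 2.80% against 4.35 to 6.16%. Of the notochordal and nucleus pulposus markers, Tbxt, Noto and Krt19 had 0 counts in all 6 libraries. Acan (aggrecan) was at 2.31 to 3.44 CPM (counts scaled to a common library size) in controls and 1.08 to 2.18 with Braco-19. Of 23 disc cell identity genes 17 passed the count filter, and the list summed to 732 to 826 CPM in controls and 874 to 953 with Braco-19, with Lgals3 as its highest gene. Of these 17, 9 had a positive fold change and 0 were called over 18 libraries. In the fit of the 6 libraries alone, described below, Lgals3 was higher (log2 fold change 0.45, edgeR adjusted p = 0.0491). Cd55 and Ca3 were lower in that fit (-0.63 and -0.53, edgeR adjusted p = 0.00505 and 0.0279). The cartilage-type matrix list summed to 4368 to 4989 and 5149 to 5287 CPM, with Mgp as its highest. A list of 9 disc annulus and tendon fibroblast markers summed to 5009 to 6210 CPM in controls and 5872 to 6956 with Braco-19. Col1a1 was the highest of these markers, and Tnmd was at 0 in all 6 libraries. The defining leukocyte markers Ptprc, Tyrobp and Cd3e, the endothelial Cdh5, Tie1 and Emcn and the erythroid Hbb, Hba-a1 and Hba-a2 were at 0 in all 6. The endothelial list of 8 genes, 3 of them tested, summed to 19.7 to 21.2 CPM in controls and 17.0 to 20.5 with Braco-19, with Flt1 as its highest gene. The first principal component of the 6 libraries held 48.2% of their variance and placed the controls at -18.2, -5.83 and -8.65 and the Braco-19 libraries at 1.09, 17.1 and 14.4, so Braco-19 replicate 1 lay nearest to the controls.

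The number of genes called with Braco-19 depended on the fit. With edgeR's quasi-likelihood test over all 18 libraries, in which 6 groups share 1 estimate of the spread, 24 genes were higher and 15 lower at an adjusted p (Benjamini-Hochberg over 14184 genes) under 0.05. These are the genes called here, 0.169% of those tested in the higher and 0.106% in the lower direction. At an unadjusted p under 0.05 there were 2660, of which 1612 were higher and 1048 lower. The p-values of this fit carry the spread of all 6 groups. Over 9491 genes the median SD of log2 CPM was 0.0948 in the Braco-19 controls and 0.0987 with Braco-19. It was 0.106 and 0.0819 in PDS controls and PDS, and 0.143 and 0.122 in Phen-DC3 controls and Phen-DC3. DESeq2 over the same libraries gave an adjusted p for 8409 genes and called 214 higher and 145 lower. Genes without an adjusted p could not be called, so a DESeq2 count in a list below may cover only part of it. The log2 fold change of the called genes ran from 0.39 to 1.28 (median 0.55) for the higher and from 0.36 to 0.77 in size (median 0.46) for the lower. Fitted alone, the 6 libraries gave 433 higher (3.21%) and 348 lower genes (2.58%) among 13477 tested, and these included all 39. The counts hang on single libraries: the 18-library fit gave 1 higher and 0 lower without Braco-19 replicate 3, 3 and 1 without replicate 2, 120 and 33 without replicate 1, and 2 and 1, 11 and 9, and 4 and 2 without control replicates 1, 2 and 3. Of the 39 genes, 38 were still called without Braco-19 replicate 1 and 1 (Apol9a) without replicate 3, and the sign of all 39 held in every setting tried. The 3 Braco-19 libraries lay above all 3 controls for 1945 genes (13.7%) and below them for 2043 (14.4%).

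**Figure D1:**
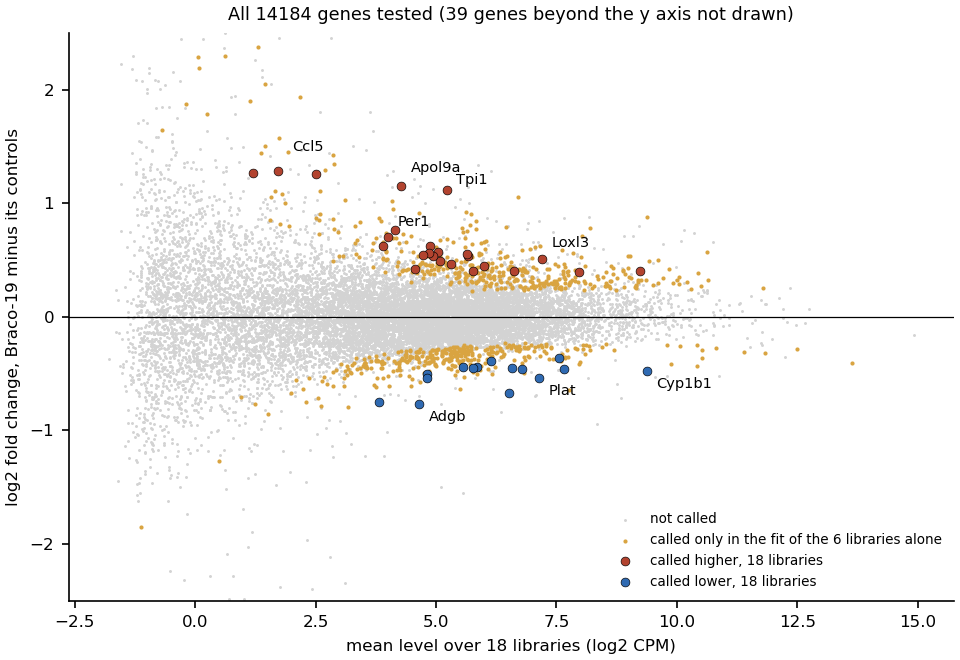
Log2 fold change of Braco-19 over its controls (y axis) against the mean level over 18 libraries in log2 CPM (x axis), 1 point per tested gene; red and blue points are the 24 genes called higher and the 15 called lower, and orange points are those called only when the 6 libraries were fitted alone. The called genes lie between 0.36 and 1.28 in size, within a cloud centred on 0.

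Interferon-induced genes were among the higher calls. Apol9a is an interferon-inducible apolipoprotein L gene (ENSRNOG00000023410, chromosome 7, 118927008 to 118933812 on the deposited coordinates, of a build that the sources used here do not name). It was at 7.77, 11.6 and 11.1 CPM in the controls and at 20.5, 25.4 and 22.0 with Braco-19. These values, like all CPM below unless stated otherwise, follow TMM scaling of the library sizes. The groups did not overlap, and Apol9a rose 2.22-fold, by 1.15 ± 0.15 on the log2 scale (fitted value ± SE, as below; edgeR adjusted p = 0.00261). It was the only called gene that stayed called in all 15 settings of the analysis. Its promoter is the first of the stretches printed above.

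Irf7, the transcription factor that amplifies type I interferon induction, was at 15.2, 14.5 and 14.6 CPM in controls and 19.6, 23.0 and 21.9 with Braco-19, a rise of 0.54 ± 0.11 (edgeR adjusted p = 0.0343). Stat2, a subunit of the interferon-activated factor ISGF3, went from 48.8, 55.8 and 55.3 to 67.8, 77.4 and 65.7 CPM and rose by 0.40 ± 0.08 (edgeR adjusted p = 0.0343). Both factors were higher in every treated library than in any control. Gbp2, a guanylate-binding GTPase induced by interferon, was at 17.8, 16.5 and 20.1 CPM in controls and 26.4, 27.8 and 26.1 with Braco-19 (0.56 ± 0.09, edgeR adjusted p = 0.00686). RT1-S3, a nonclassical MHC class I gene, was at 5.85, 7.42 and 5.74 against 9.80, 11.3 and 11.2 CPM (0.76 ± 0.15, edgeR adjusted p = 0.0343); rat class I genes are close copies, and how shared reads were counted is not given, so its level is uncertain. Uba7, the activating enzyme for the ubiquitin-like protein Isg15, was called at a low level, 0.622, 1.13 and 0.935 against 1.90, 2.75 and 1.84 CPM (1.27 ± 0.27, edgeR adjusted p = 0.0439).

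Of 36 tested interferon-response genes, 2 were called higher and 0 lower over 18 libraries, and 32 had a positive fold change, with a median of 0.35 against 0.00 for all genes tested. In the fit of the 6 libraries alone 12 of 33 were called higher and 0 lower, 7 antiviral effectors and 5 regulators. Their summed level was 684, 707 and 692 CPM in the controls and 858, 963 and 864 with Braco-19. The effectors called only in that fit included Isg15, the ubiquitin-like modifier itself, at 15.7, 13.9 and 15.2 against 21.7, 34.2 and 28.5 CPM (0.92 ± 0.14, edgeR adjusted p = 0.00851 with 6 libraries and 0.0763 with 18). The same held for Ifit3, which binds viral RNA complexes (0.66 ± 0.10, edgeR adjusted p = 0.00505, and 0.189 with 18), and for Oasl, an antiviral relative of the oligoadenylate synthetases (0.74 ± 0.11, edgeR adjusted p = 0.00505, and 0.0969 with 18). The count of 12 was 9, 9 and 5 without control replicates 1, 2 and 3, and 12, 3 and 2 without Braco-19 replicates 1, 2 and 3. The leukocyte marker list, scaled by total counts without TMM, summed to 3.53 to 3.59 CPM in controls and 3.81 to 5.74 with Braco-19. Cd68 was the highest gene of that list. The part of leukocytes in the interferon genes was not tested, and Ptprc was at 0 in every library. In the promoter windows, 15 of 26 interferon-response genes with a window held the response element.

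The 2 called chemokines moved in opposite directions. Ccl5, which attracts T cells and monocytes and is itself interferon-inducible, was at 2.49, 2.55 and 2.62 CPM in controls and 5.38, 6.30 and 6.70 with Braco-19, and rose 2.4-fold (1.26 ± 0.25, edgeR adjusted p = 0.0343). Ccl20, the ligand of Ccr6 and a target of NF-kB, was at 49.7, 39.7 and 45.3 against 31.4, 24.6 and 28.8 CPM and fell by 0.67 ± 0.11 (edgeR adjusted p = 0.0111). Neither gene's groups overlapped. Of 17 tested chemokines these were the only edgeR calls over 18 libraries, and DESeq2, which gave an adjusted p for 13 of them and none for Ccl5, called 0 higher and 3 lower. With the 6 libraries alone 2 were higher and 2 lower, Ccl2 among the latter (1797, 1599.7 and 1632 against 1399, 1313 and 1395 CPM, a log2 fold change of -0.29 ± 0.07, edgeR adjusted p = 0.0256). Without control replicates 1, 2 and 3 these counts were 2 and 1, 1 and 2, and 1 and 1, and without Braco-19 replicates 1, 2 and 3 they were 2 and 3, 1 and 1, and 0 and 0. Of 34 NF-kB and inflammation genes edgeR called 0 in either direction, against 3 higher and 6 lower at an unadjusted p under 0.05 and 1 and 2 with DESeq2, and all 8 tested cytokines of that list had a negative fold change, with a median of -0.30. Ptgs2, the inducible cyclooxygenase, was at 1278, 958 and 1091 against 732, 548 and 750.4 CPM without passing the test (-0.71 ± 0.18, edgeR adjusted p = 0.113).

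Among genes that answer to glucocorticoids, edgeR called 3 of 15 higher and 0 lower over 18 libraries, with 5 higher and 2 lower at an unadjusted p under 0.05, and DESeq2 called 3 higher and 1 lower. The count of 3 was 1, 1 and 0 without control replicates 1, 2 and 3 and 4, 1 and 0 without Braco-19 replicates 1, 2 and 3. Per1, a repressor of the circadian clock, was at 19.2, 20.3 and 18.6 CPM in controls and 31.0, 30.6 and 32.8 with Braco-19, and rose 1.62-fold (0.70 ± 0.11, edgeR adjusted p = 0.00686). Klf15, a Krüppel-like factor of fasting metabolism, was at 17.8, 17.0 and 15.3 against 20.8, 26.2 and 25.6 CPM (0.53 ± 0.10, edgeR adjusted p = 0.0246). Angptl4, an inhibitor of lipoprotein lipase, was at 55.9, 49.1 and 45.9 against 65.9, 65.3 and 66.9 CPM (0.39 ± 0.07, edgeR adjusted p = 0.0238). All 3 genes were separated between the groups. Per1 was also the only one of 17 clock genes that edgeR called over 18 libraries, where DESeq2 called 2 higher.

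Secreted and matrix-processing genes gave calls in both directions. Loxl3, a lysyl oxidase that crosslinks collagen, was at 148, 171 and 165 CPM in controls and 213, 245 and 231 with Braco-19 (0.51 ± 0.08, edgeR adjusted p = 0.00686). Ptx3, a long pentraxin of innate immunity and matrix assembly, was at 14.7, 16.7 and 18.1 against 23.8, 22.8 and 24.95 CPM (0.53 ± 0.09, edgeR adjusted p = 0.0111). Gas6, the ligand of the TAM receptor kinases, was at 329, 349 and 339 against 415, 499.8 and 432 CPM (0.41 ± 0.07, edgeR adjusted p = 0.0157). These 3 rose with no overlap between groups. Plat, tissue plasminogen activator, was at 213, 168 and 168 against 131, 119 and 127 CPM and fell by 0.54 ± 0.09 (edgeR adjusted p = 0.0157). Chsy3, a chondroitin sulfate synthase, was at 107, 87.3 and 92.9 against 72.6, 64.4 and 74.1 CPM and fell by 0.44 ± 0.09 (edgeR adjusted p = 0.0343).

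Cartilage-type matrix genes gave 0 calls of 22 over 18 libraries and 0 of 20 with the 6 alone by edgeR (1 higher after the length correction described later). At an unadjusted p under 0.05 over 18 libraries 1 was higher and 1 lower. DESeq2 called 0, but gave an adjusted p for only 8 of them. Acan had a log2 fold change of -0.71 ± 0.41 at its low level (edgeR adjusted p = 0.355). Col2a1, the type II collagen chain, was at 15.9, 22.3 and 22.6 against 16.9, 24.4 and 17.5 CPM, with overlapping groups (-0.05 ± 0.15, edgeR adjusted p = 0.886). Sox9, its transcription factor, was at 13.2, 15.6 and 16.03 against 20.8, 18.5 and 18.9 CPM and did not pass (0.37 ± 0.14, edgeR adjusted p = 0.172). Of 38 matrix-degrading enzymes and their partners, Plat was the only edgeR call over 18 libraries. DESeq2 called 2 lower, and the 6 libraries alone gave 1 higher and 2 lower of 37, where the shares over all genes were 3.21% and 2.58%. The collagenase Mmp13 ranged from 971 to 1599 CPM in controls and from 620.0 to 1088 with Braco-19, so the groups overlapped (-0.53 ± 0.22, edgeR adjusted p = 0.23). Mmp3, stromelysin, overlapped as well (-0.25 ± 0.08, edgeR adjusted p = 0.151).

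The lower calls included genes of xenobiotic, redox, polyamine and lipid metabolism. Cyp1b1, a cytochrome P450 induced through the aryl hydrocarbon receptor, was at 1617, 1371 and 1366 CPM in controls and 1052, 928 and 1156 with Braco-19, and fell by 0.47 ± 0.09 (edgeR adjusted p = 0.0343). Nqo1, a quinone reductase under the same receptor and NRF2, was at 356, 306 and 314 against 249, 207 and 255 CPM (-0.46 ± 0.08, edgeR adjusted p = 0.0244). Gclc, the catalytic subunit of the first enzyme of glutathione synthesis, was at 91.5, 83.6 and 99.2 against 68.0, 66.7 and 65.8 CPM (-0.45 ± 0.09, edgeR adjusted p = 0.0343). Each of these groups lay wholly below its controls. Cyp1b1 and Nqo1 were 2 of 9 tested aryl hydrocarbon receptor targets, of which 8 had a negative fold change. Nqo1 and Gclc were 2 of 35 NRF2 and antioxidant genes, of which 19 had a positive fold change. The median of that list was 0.04, with 6 higher and 8 lower at an unadjusted p under 0.05. With the 6 libraries alone, 1 of 34 was called higher and 2 lower. The higher one was Sod1 (0.53 ± 0.08, edgeR adjusted p = 0.00505 in that fit). Sod1 was not called over all libraries (edgeR adjusted p = 0.236).

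Amd1, the S-adenosylmethionine decarboxylase of polyamine synthesis, was at 168, 156 and 160.4 CPM in controls and 122, 117 and 115 with Braco-19 (-0.46 ± 0.08, edgeR adjusted p = 0.0246). Azin1, which protects ornithine decarboxylase from its antizyme, was at 104, 110.5 and 98.2 against 80.8, 82.1 and 76.6 CPM (-0.39 ± 0.08, edgeR adjusted p = 0.0372). Both fell with no overlap.

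Of 32 cholesterol synthesis genes, edgeR called 2 lower and 0 higher over 18 libraries (7 lower and 0 higher with DESeq2), and 6 lower and 1 higher of 31 with the 6 alone. Cyp51, lanosterol demethylase, was at 219, 220.4 and 222 CPM in controls and 168, 181 and 166 with Braco-19 (-0.36 ± 0.06, edgeR adjusted p = 0.012). Sc5d, sterol desaturase, was at 104, 109 and 105 against 79.9, 78.0 and 75.03 CPM (-0.45 ± 0.08, edgeR adjusted p = 0.0169). Scd, which desaturates fatty acids, was at 67.9, 75.3 and 75.8 against 56.2, 56.1 and 49.2 CPM (-0.44 ± 0.09, edgeR adjusted p = 0.0361). The 3 genes fell and their groups were separated. The 6 lower calls of the smaller fit all fell among the 20 enzymes, whose median was -0.20, while the 12 uptake genes and regulators had a median of 0.15. The count of 6 was 2, 3 and 2 without control replicates 1, 2 and 3, and 7, 4 and 0 without Braco-19 replicates 1, 2 and 3.

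**Figure D2:**
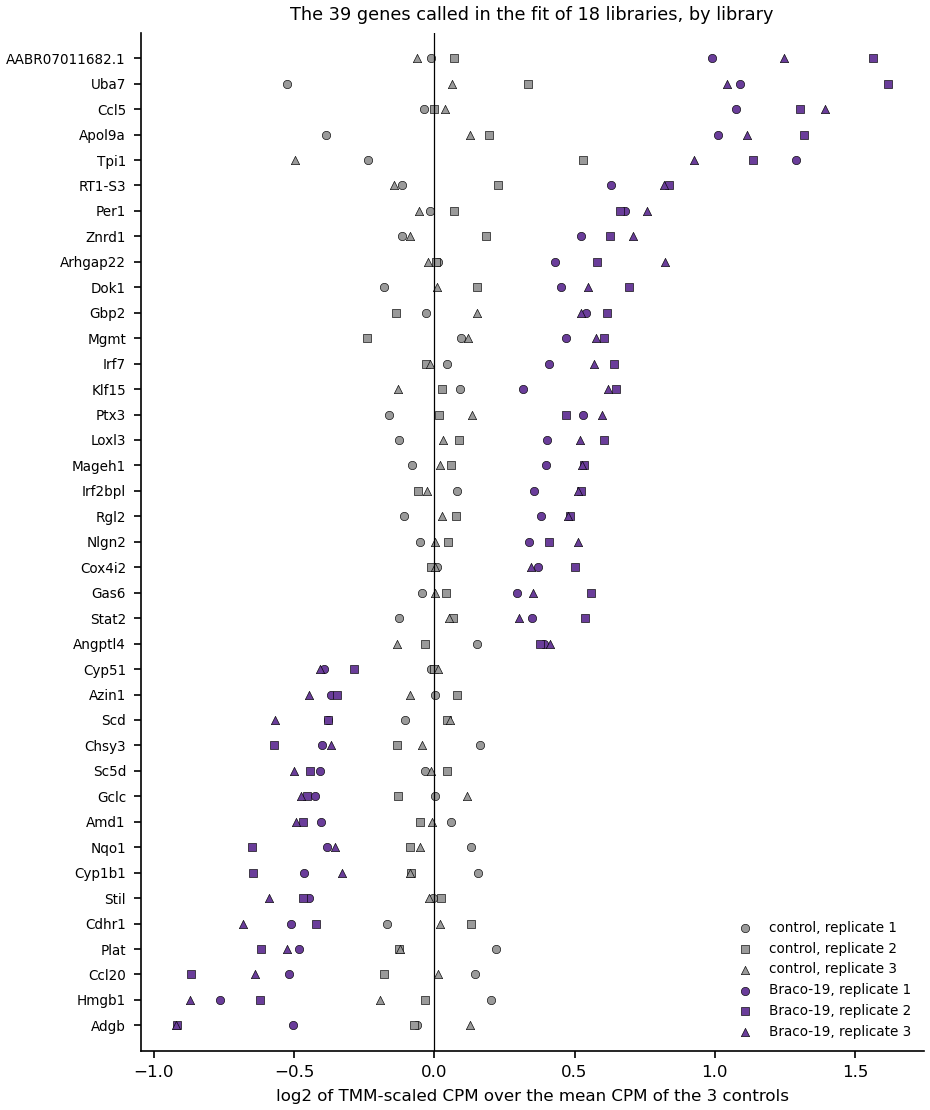
Level of each of the 39 called genes in each of the 6 libraries, as log2 of its CPM over the mean of the 3 controls (x axis); grey points are controls, purple points Braco-19, and the shape gives the replicate. No purple point lies among the grey ones of its gene, and the widest distances belong to genes at low levels such as Uba7.

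The remaining calls had no common list. Dok1, an adaptor of tyrosine kinase signalling, was at 24.8, 31.3 and 28.3 CPM in controls and 38.5, 45.6 and 41.1 with Braco-19 (0.57 ± 0.12, edgeR adjusted p = 0.0361). Arhgap22, a Rac-directed GTPase activator, rose by 0.62 ± 0.12 (edgeR adjusted p = 0.0343), as did Znrd1, a subunit of RNA polymerase I (0.62 ± 0.12, edgeR adjusted p = 0.0343). Mgmt, which repairs alkylated guanine in DNA, was at 15.8, 12.5 and 16.1 against 20.5, 22.5 and 22.1 CPM (0.55 ± 0.12, edgeR adjusted p = 0.0493). Adgb, androglobin, was at 40.5, 40.2 and 46.1 against 29.8, 22.4 and 22.3 CPM, which with -0.77 ± 0.12 was the lower call of largest size (edgeR adjusted p = 0.00686). Stil, a centriole duplication factor, fell from 61.0, 62.2 and 60.4 to 44.9, 44.3 and 40.6 CPM (-0.50 ± 0.09, edgeR adjusted p = 0.0258), and Cdhr1, a photoreceptor cadherin, fell by 0.54 ± 0.11 (edgeR adjusted p = 0.0374). Tpi1, a glycolytic enzyme, rose by 1.12 ± 0.21 (edgeR adjusted p = 0.0343) and Hmgb1, a chromatin protein, fell by 0.75 ± 0.14 (edgeR adjusted p = 0.0287), but both have near-identical copies in the genome and both levels are uncertain. The Hmgb1 entry is 2221 bases long and spans 2221 bases of the chromosome, so it has no intron. Of the other called genes, a lincRNA named AABR07011682.1, Mageh1, Rgl2, Nlgn2, Irf2bpl and Cox4i2 were higher.

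The mitosis list was shifted downward without a call over 18 libraries, though Stil, called lower above, is not in that list. EdgeR called 0 of its 62 genes, with 3 higher and 20 lower at an unadjusted p under 0.05, and DESeq2 called 9 lower. With the 6 libraries alone 19 of the 62 mitosis genes were called lower and 0 higher, where the lower share over all genes was 2.58%. The median of the 62 was -0.20. Their summed level was 9788, 9911 and 9847 CPM in controls and 9085, 8866 and 8125 with Braco-19. Top2a, the mitotic DNA topoisomerase, was at 644, 668 and 640.2 against 524, 503 and 440.97 CPM (-0.41 ± 0.07, edgeR adjusted p = 0.00851 with 6 libraries and 0.117 with 18). Plk4, the kinase of centriole duplication, was at 76.4, 79.5 and 76.4 against 57.9, 62.8 and 58.1 CPM (-0.37 ± 0.07, edgeR adjusted p = 0.0124, and 0.116 with 18). Both had separated groups. Leaving out control replicates 1, 2 and 3 gave 14, 10 and 6 lower mitosis genes, and leaving out Braco-19 replicates 1, 2 and 3 gave 29, 3 and 0.

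DNA replication genes gave 6 lower of 57 in the fit of the 6 libraries alone, and homologous recombination and Fanconi genes 5 lower of 39. In both lists 0 were higher, and the lower share over all genes was 2.58%. Over 18 libraries edgeR called 0 in both, with 18 and 7 lower at an unadjusted p under 0.05. DESeq2 called 2 and 0 lower among the 50 and 20 genes to which it gave an adjusted p. Ccne2, the cyclin of S phase entry, was at 45.6, 48.7 and 52.9 CPM in controls and 36.1, 30.6 and 30.1 with Braco-19 (-0.60 ± 0.09, edgeR adjusted p = 0.00505 with 6 libraries and 0.1 with 18). Brip1, the helicase that unwinds quadruplexes during replication, was at 30.2, 28.5 and 31.3 against 23.4, 21.6 and 20.7 CPM (-0.45 ± 0.09, edgeR adjusted p = 0.016, and 0.158 with 18). Neither gene's groups overlapped. The replication count of 6 was 4, 3 and 2 without control replicates 1, 2 and 3 and 11, 1 and 0 without Braco-19 replicates 1, 2 and 3, and the recombination count of 5 was 1, 2, 0, 8, 0 and 0 in the same order.

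The p53 targets gave 0 calls of 36 over 18 libraries by edgeR, with 6 higher and 3 lower at an unadjusted p under 0.05 and 1 and 1 by DESeq2. Cdkn1a, the p53-induced inhibitor of cyclin-dependent kinases, was at 245, 246 and 257 CPM in controls and 270.4, 295 and 299 with Braco-19, with separated groups but no call (0.21 ± 0.07, edgeR adjusted p = 0.158). With the 6 libraries alone, 2 of the 36 were higher and 1 lower, where the shares over all genes were 3.21% and 2.58%. Without control replicates 1, 2 and 3 these counts were 2 and 1, 2 and 0, and 1 and 0. Without Braco-19 replicates 1, 2 and 3 they were 4 and 3, 0 and 0, and 0 and 0. Shelterin and telomere maintenance genes gave 0 calls of 22 over 18 libraries by edgeR (3 higher and 2 lower at an unadjusted p under 0.05, and 1 higher by DESeq2) and 3 higher with the 6 alone. That count was 1, 1 and 0 without control replicates 1, 2 and 3 and 4, 1 and 0 without Braco-19 replicates 1, 2 and 3. Tert, the telomerase subunit, stayed at 2.55 to 3.92 CPM in controls and 3.57 to 4.20 with Braco-19, with overlapping groups (0.28 ± 0.26, edgeR adjusted p = 0.566).

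Genes whose products or promoters are tied to quadruplexes gave no call over 18 libraries: 0 of 42 helicases and binding proteins and 0 of 22 oncogenes with studied promoter quadruplexes by edgeR. At an unadjusted p under 0.05 the first list had 5 higher and 3 lower and the second 3 and 2, and DESeq2 called 1 higher and 0. With the 6 libraries alone, 0 of 15 helicases in this list were called (Brip1, counted above with the recombination genes, is not among them), and of 27 binding proteins 5 were higher and 1 lower. Hnrnpa1, an RNA-binding protein that unfolds telomeric quadruplexes, was at 438, 554 and 508 CPM in controls and 603, 651 and 622 with Braco-19 (0.33 ± 0.08, edgeR adjusted p = 0.0284 with 6 libraries and 0.142 with 18). Rif1, a quadruplex-binding factor of replication timing, was at 60.7, 57.9 and 60.2 against 47.9, 46.4 and 46.2 CPM (-0.34 ± 0.07, edgeR adjusted p = 0.0173, and 0.247 with 18). Both were separated between groups. The 5 higher and 1 lower became 10 and 4 without Braco-19 replicate 1, and 0 and 0 without replicate 2, replicate 3 or control replicate 3, with 1 and 1 and 2 and 1 without control replicates 1 and 2.

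Of the 22 oncogenes, 5 lay above and 3 below all of their controls, where 13.7% and 14.4% of all genes tested did so. Myc, whose promoter quadruplex is the most studied, was at 30.8, 33.7 and 39.8 CPM in controls and 29.4, 29.7 and 31.9 with Braco-19, with overlapping groups (-0.20 ± 0.09, edgeR adjusted p = 0.262). Vegfa, the vascular growth factor, overlapped too, at 99.9, 88.9 and 103 against 96.6, 87.5 and 115 CPM (0.04 ± 0.09, edgeR adjusted p = 0.846). With the 6 libraries alone, 2 of 21 were lower, where the share over all genes was 2.58%. They were Rb1 (-0.49 ± 0.13, edgeR adjusted p = 0.0427) and Hif1a (-0.28 ± 0.08, edgeR adjusted p = 0.0446). Leaving out 1 library gave 0 lower calls in the list, apart from 1 without control replicate 2 and 3 without Braco-19 replicate 1. Of the 17 oncogenes with a promoter window, 7 held the quadruplex pattern.

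The lists of ribosomal protein and nuclear respiratory genes were shifted upward while the genes of the mitochondrial chromosome were shifted downward. Again, no member of these lists had an edgeR call over 18 libraries. Cox4i2, a nuclear gene for a cytochrome oxidase subunit, was called higher (0.41 ± 0.08, edgeR adjusted p = 0.0374) but is not in the list. DESeq2 called 11 ribosomal protein and 5 nuclear respiratory genes higher and 2 mitochondrially encoded genes lower, and at an unadjusted p under 0.05 edgeR had 39 and 22 higher and 5 lower. Of 72 cytosolic ribosomal protein genes, 62 had a positive fold change, with a median of 0.27, and with the 6 libraries alone 18 of 71 were called higher and 0 lower. Their sum was 20764, 20560.4 and 21056 CPM in controls and 22878, 26519 and 24031 with Braco-19, without overlap. Rps20, of the small subunit, was at 204, 245 and 239 against 347, 487 and 435 CPM (0.89 ± 0.13, edgeR adjusted p = 0.0145 with 6 libraries and 0.144 with 18). Ribosomal protein genes have many processed copies, so single levels are uncertain. The count of 18 was 4, 8 and 3 without control replicates 1, 2 and 3 and 36, 2 and 0 without Braco-19 replicates 1, 2 and 3.

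Of 46 nuclear genes of oxidative phosphorylation, 12 were called higher and 0 lower with the 6 libraries alone, 8 of them among the 24 subunits of complex I. Ndufb6, one of these, was at 17.3, 18.7 and 20.6 CPM in controls and 26.1, 35.1 and 35.4 with Braco-19 (0.77 ± 0.12, edgeR adjusted p = 0.00573 with 6 libraries and 0.158 with 18). The 13 mitochondrially encoded genes, which code for subunits of the same complexes, gave 7 lower and 0 higher calls in that fit, with a median of -0.41. Mt-co1, the core subunit of cytochrome oxidase, was at 12016, 10610.0 and 10844 against 9011, 8178 and 8089 CPM (-0.40 ± 0.07, edgeR adjusted p = 0.00907, and 0.128 with 18). Ndufb6 lay above and Mt-co1 below all of its controls, and 41 of 47 nuclear genes had a positive fold change against 2 of 13 mitochondrial ones. Mitochondrial genes as a share of counts were 2.96 ± 0.30% in controls and 2.28 ± 0.15% with Braco-19 (SD, n = 3 each), and an exact two-sided permutation test gave p = 0.1, the smallest that 3 against 3 allows. The nuclear count of 12 was 6, 6 and 3 without control replicates 1, 2 and 3 and 22, 1 and 0 without Braco-19 replicates 1, 2 and 3, and the mitochondrial count of 7 was 4, 10, 2, 8, 1 and 0.

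Glycolysis and glucose uptake genes gave 8 higher and 0 lower of 21 in the fit of the 6 libraries, and Tpi1 alone over 18 by edgeR, where DESeq2 called 5 higher. Pfkl, a phosphofructokinase, was at 137, 142 and 142 CPM in controls and 166, 209.7 and 198 with Braco-19 (0.45 ± 0.08, edgeR adjusted p = 0.00941 with 6 libraries and 0.0923 with 18). Pgk1, phosphoglycerate kinase, was at 616, 668 and 645 against 771, 877 and 769 CPM (0.33 ± 0.07, edgeR adjusted p = 0.0163, and 0.1 with 18). Both were separated between groups. The whole list of hypoxia and glycolysis genes had 10 higher and 1 lower of 43, and its higher count was 4, 5 and 1 without control replicates 1, 2 and 3 and 12, 0 and 1 without Braco-19 replicates 1, 2 and 3.

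**Figure D3:**
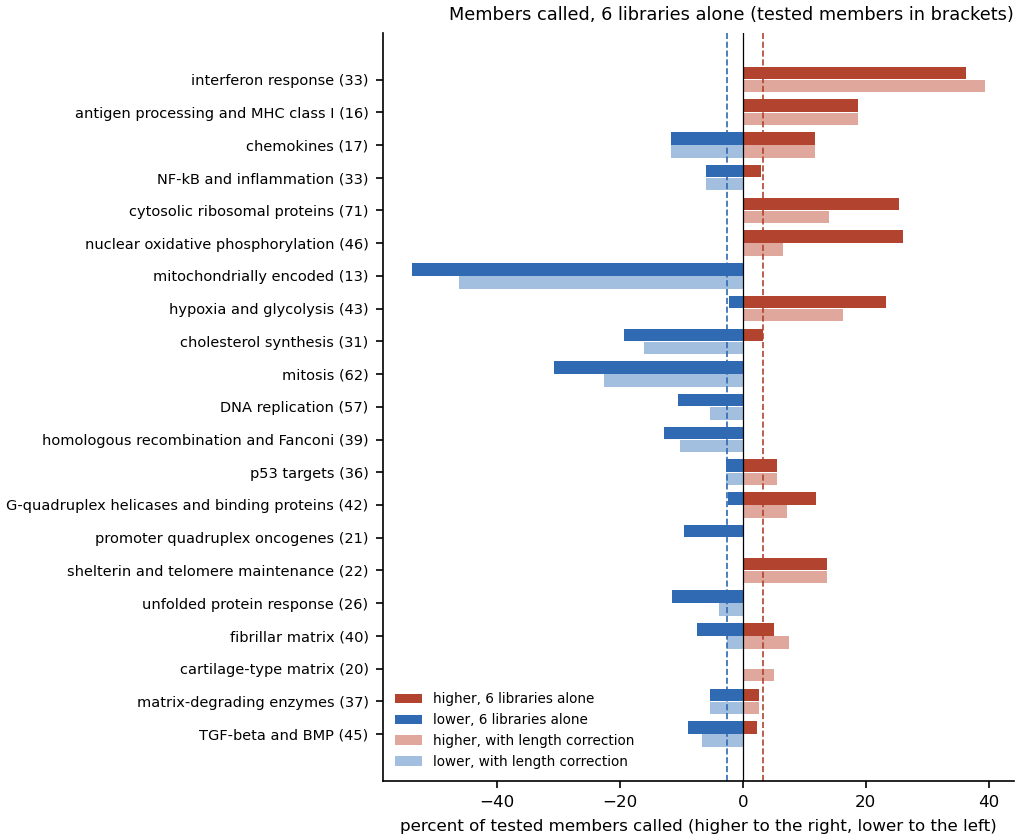
Percent of the tested members of each list called higher (right, red) or lower (left, blue) when the 6 libraries were fitted alone, with pale bars for the same fit after a correction for gene length; dashed lines give 3.21% and 2.58%, the shares over all 13477 genes. Among the lists drawn, 12 of 33 interferon-response genes lie to the right and 7 of 13 mitochondrially encoded genes to the left.

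Fold changes moved with gene length over all genes tested. Longer genes tended to lower fold changes (Spearman's rho across genes -0.225), a description over genes that share the same 6 libraries. The median fold change was 0.14 for genes under 1 kb, 0.05, 0.01 and -0.05 in the next 3 classes, and -0.09 above 5 kb. These classes held 2056, 4068, 3313, 3221 and 1526 genes of those tested over 18 libraries. With the 6 libraries alone, genes under 1 kb gave 122 higher and 15 lower calls, and genes above 5 kb 17 higher and 95 lower. After each library was corrected for its trend against length, the 6 libraries gave 313 higher (2.32%) and 283 lower genes (2.10%), and 485 of the 781 earlier calls were among them. The ribosomal count went from 18 to 10, the nuclear respiratory count from 12 to 3 and the mitosis count from 19 to 14. The interferon count went from 12 to 13, the mitochondrially encoded count from 7 to 6 and the cholesterol count from 6 to 5. DNA replication went from 6 to 3 lower, recombination from 5 to 4, quadruplex binding proteins from 5 higher and 1 lower to 3 and 0, hypoxia and glycolysis from 10 and 1 to 7 and 0, and the oncogenes from 2 lower to 0. The mitochondrially encoded genes are short, with a median of 784 bases, and their median fold change was -0.41 before and -0.50 after the correction. What set the length trend was not tested.

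**Figure D4:**
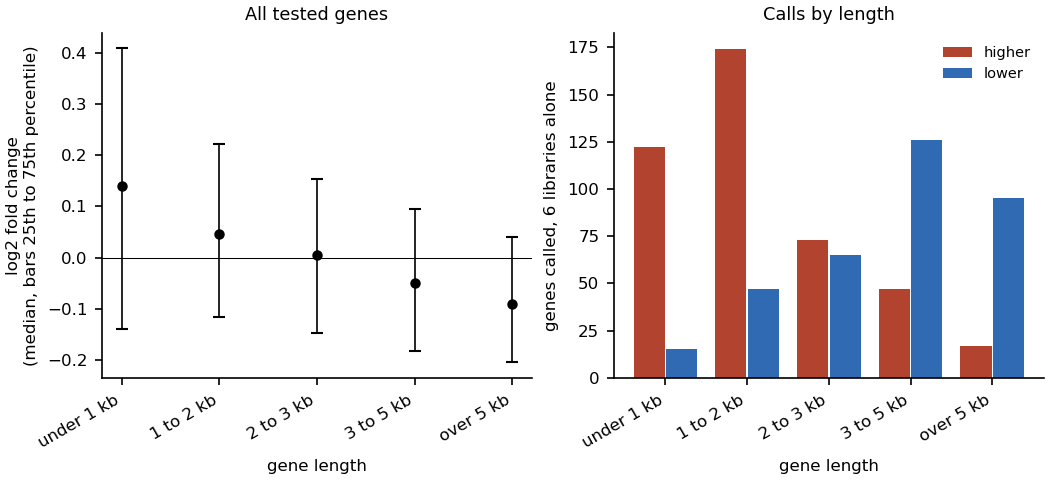
Left, median log2 fold change of Braco-19 over its controls by class of gene length, with bars from the 25th to the 75th percentile; right, number of genes called higher (red) and lower (blue) in each class when the 6 libraries were fitted alone. The medians step down from 0.14 under 1 kb to -0.09 above 5 kb. The classes differ in size, from 1526 to 4068 genes, so the numbers at right are not rates.

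The Braco-19 effect was set against those of the other ligands, PDS and Phen-DC3, each over its own controls, by a contrast of the 2 effects in the 18-library fit. Doses were not given in the sources used here, and the Braco-19 set differs from the others in the makeup of its untreated cells, so the compound and the set of cultures cannot be told apart. The effect differed from that of PDS in 1990 genes (14.0%), 957 with a higher and 1033 with a lower value for Braco-19. It differed from that of Phen-DC3 in 7 genes (0.0494%). In the second contrast 1344 genes reached an unadjusted p under 0.05 and DESeq2 called 53, and a missed threshold does not show that the compounds act alike. With edgeR, the 7 became 0 after the length correction. With 1 library left out, the differences from PDS numbered from 896 (without PDS replicate 3) to 2353 (without Braco-19 replicate 1), and those from Phen-DC3 from 0 (without any of 6 libraries, Braco-19 replicate 2 among them) to 15 (without Phen-DC3 control replicate 3).

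Of the 39 genes called with Braco-19, 9 were called in the same direction with PDS, 9 in the opposite direction and 21 in neither, and the effects differed for 25. Over all genes tested the effects differed for 14.0%. The 39 were chosen by the Braco-19 effect, which is itself part of the contrast. Their share is thus no measure of how the compounds differ, here or for Phen-DC3 below. Over all genes tested, 8.09% were called with PDS and 8.01% with Phen-DC3, in either direction. Ccl5, Irf7 and Gbp2 rose under both, by 1.47 ± 0.24, 0.72 ± 0.10 and 0.50 ± 0.08 with PDS (edgeR adjusted p = 0.000496, 0.000104 and 0.000591). Gas6 and Ptx3 rose with Braco-19 and fell with PDS, by 0.56 ± 0.07 and 0.53 ± 0.08 (edgeR adjusted p = 2.61e-05 and 0.000229), and the effects differed by 0.97 ± 0.10 and 1.06 ± 0.12 (edgeR adjusted p = 7e-06 and 1.69e-05). Klf15 and Angptl4 showed the same reversal, with differences of 1.19 ± 0.14 and 0.94 ± 0.10 (edgeR adjusted p = 3.12e-05 and 9.06e-06). Plat and Chsy3 fell with Braco-19 and rose with PDS, by 0.54 ± 0.09 and 1.18 ± 0.09 (edgeR adjusted p = 0.00095 and 1.02e-07). With Phen-DC3, 4 of the 39 were called in the same direction, among them Cyp1b1 (-0.40 ± 0.09, edgeR adjusted p = 0.0201), Stil (-0.50 ± 0.11, edgeR adjusted p = 0.0146) and Scd (-0.30 ± 0.09, edgeR adjusted p = 0.0484), and 0 in the opposite one. The effects of Braco-19 and Phen-DC3 differed for 2 of the 39: Per1 by 0.87 ± 0.15 and Nqo1 by -0.72 ± 0.12 (edgeR adjusted p = 0.0384 for both).

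**Figure D5:**
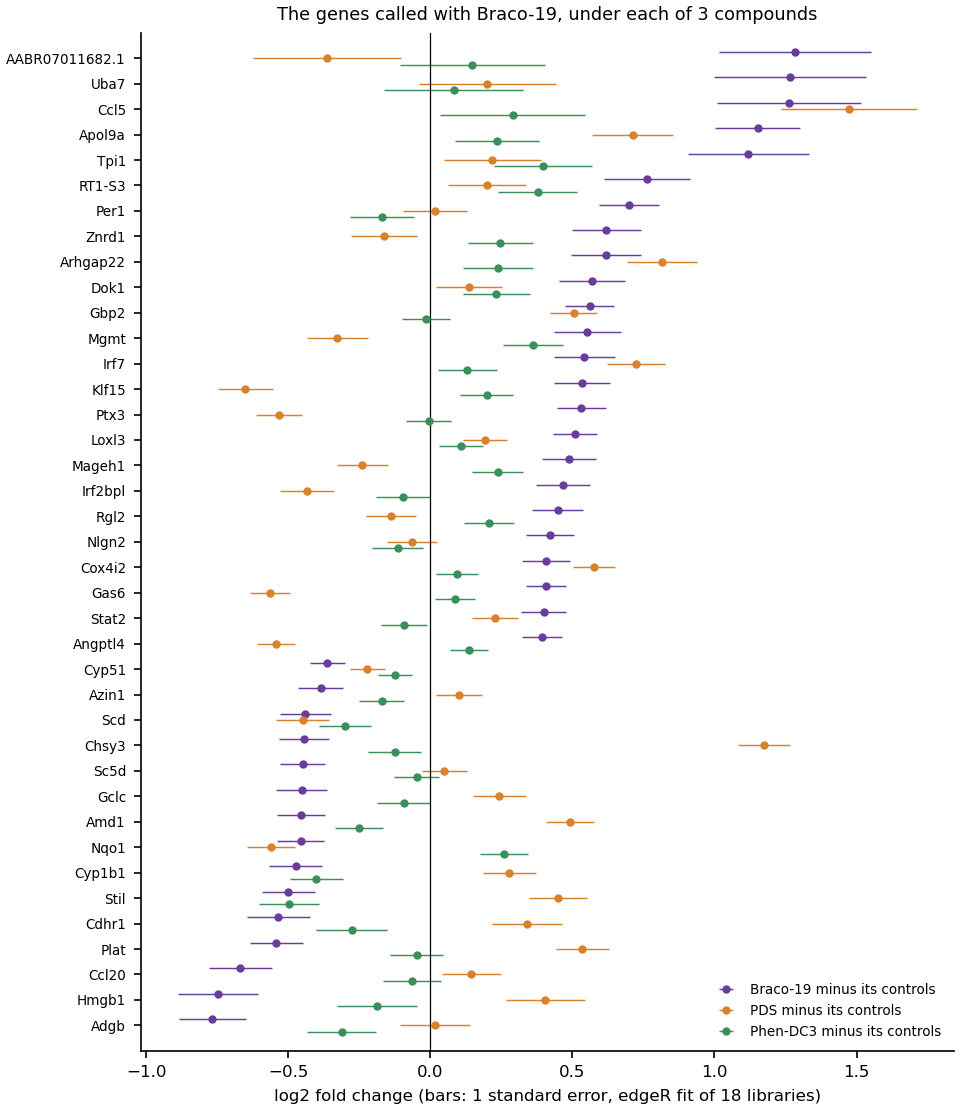
Log2 fold change (x axis, bars 1 standard error) of the 39 genes called with Braco-19, for Braco-19 (purple), PDS (orange) and Phen-DC3 (green), each over its own controls. The PDS points of Gas6, Ptx3, Klf15 and Angptl4 lie left of 0 and that of Chsy3 lies at 1.18, on the other side from Braco-19.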

How the data were processed

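RNA was sequenced from cultured rat nucleus pulposus cells in 18 libraries, 3 in each of 6 groups. The authors deposited 1 table of raw counts for 33898 genes, made with CASAVA, HISAT2 and featureCounts 1.5.0-p3 per the submitters' processing notes. The sources used here name no genome build, annotation or strand setting, so reads of antisense or overlapping genes cannot be told apart. All count columns were matched to samples by title.

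The fit used edgeR 4.0.16 in R 4.3.3 (filterByExpr, TMM scaling, robust quasi-likelihood, 1 mean per group, 12 residual degrees of freedom), with Benjamini-Hochberg adjustment over 14184 genes and a threshold of 0.05, tested on simulated data. The 6 libraries alone (4 residual degrees of freedom) were refitted as an alternative, beside other scalings and filters, DESeq2 1.42.0, a length correction (lowess offset), a replicate block and each library left out. Levels are TMM-scaled CPM, apart from the sums of the marker, disc cell identity and cartilage-type matrix lists, which were scaled by total counts alone.

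The comparison and the lists were chosen with earlier results of these data known. The text names the called genes with the 12 largest changes a direction at a mean log2 CPM of at least 3 with a gene symbol and separated groups, up to 4 called members a list by smallest p, a preset group of disc, inflammation and quadruplex genes, and the 6 largest differences a direction between compounds. Members called only with the 6 libraries were taken after values were seen, from the 4 with the smallest adjusted p in that fit, as were the called genes AABR07011682.1, Mageh1, Rgl2, Uba7, Nlgn2, Gas6, Azin1, Irf2bpl and Cox4i2. Promoters were matched by symbol to RefSeq GRCr8. Il1b, Cyp1a1 and Krt19 did not pass the filter.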

Additional observations from a re-analysis of the deposited data

Results flagged for a closer look

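For these genes the log2 effect of Braco-19 differed from that of another compound by an edgeR contrast of the 2 effects with an adjusted p under 0.05, and they are the 6 of largest size in each direction. Against PDS, the Braco-19 effect was higher by 1.73 for Tril, 1.72 for Rps19l2, 1.53 for Gas1, 1.53 for Crip1, 1.49 for Flot1 and 1.45 for Naprt. It was lower by a difference of -1.95 for Susd5, -1.90 for Plau, -1.77 for Evi2a, -1.67 for Ptgs2, -1.62 for Chsy3 and -1.57 for Bmp2. Of these, Plau, the urokinase gene, had an effect of -0.06 ± 0.13 with Braco-19 and 1.85 ± 0.14 with PDS, and Bmp2 had -0.12 ± 0.14 and 1.44 ± 0.15.

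Against Phen-DC3, the difference was 1.27 for Ifih1, 1.18 for Pappa1, 0.87 for Per1, 0.77 for Ahnak, 0.63 for Anpep, -0.72 for Nqo1 and -0.62 for Ier3, which are all the genes called in that contrast. Ifih1, a cytosolic sensor of double-stranded RNA, was at 11.1, 13.2 and 10.5 CPM in the Braco-19 controls and 16.6, 16.9 and 13.9 with Braco-19 (0.45 ± 0.14, not called), while its effect with Phen-DC3 was -0.83 ± 0.15. Anpep had 0.19 ± 0.08 with Braco-19 and -0.43 ± 0.08 with Phen-DC3.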

How the results depend on the processing

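Over 18 libraries the 24 higher and 15 lower calls became 22 to 30 and 15 to 20 under the other scalings, both filters and the length correction, and 214 and 145 with DESeq2. Without the Phen-DC3 groups (12 libraries, an alternative chosen after seeing the data) there were 602 and 286, and with the 6 libraries alone 433 and 348. Leaving out 1 library gave 1 to 120 higher and 0 to 33 lower over 18 libraries, and 14 to 1158 and 4 to 961 with the 6 alone, lowest without Braco-19 replicate 3 and highest without Braco-19 replicate 1 each time. With the 6 alone, no count filter gave 992 and 745 and DESeq2 660 and 535. With the replicate block the 6 libraries gave 954 higher and 809 lower genes. Deviations from the group mean correlated at 0.0989, 0.174 and -0.0420 between same-numbered libraries over 9504 genes. Between differently numbered ones they correlated at -0.155 to 0.0384. These values do not decide whether equal numbers mark pairs. No label says that they do, so the numbers were not taken as pairs. The 1990 differences from PDS were 896 to 2353 with 1 library left out, and fell by over 1.5 times without PDS replicate 2 (1264) or 3 (896), PDS control replicate 2 (1123), Braco-19 replicate 2 (975) or 3 (1065) and Braco-19 control replicate 1 (1147) or 3 (1297). The 7 differences from Phen-DC3 were 4 with RLE scaling, 53 with DESeq2, 0 with the length correction in edgeR (1019 at an unadjusted p under 0.05) and 0 to 15 with 1 library left out. The cause of these changes was not tested. Of the 24 higher genes 3 lie under a mean log2 CPM of 3, and DESeq2 gave 3 of the 39 no adjusted p.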

Other observations

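Dok1 and Loxl3, both called higher, are neighbours on opposite strands of chromosome 4, Dok1 at 113864215 to 113866674 (minus) and Loxl3 at 113866804 to 113883477 (plus), with 129 bases between their starts. No other pair of the 39 called genes lay within 5000 bases of each other. The pair was noticed after the values were seen, and whether the genes share a promoter was not tested. Dok1 had a log2 fold change of 0.57 ± 0.12 and Loxl3 of 0.51 ± 0.08.

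Called genes differed in length by direction. The 24 higher genes had a median length of 1948.5 bases and the 15 lower ones 3341 bases, against 2248 bases for all genes tested.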
